A study of Homo sapiens with 30 samples.

Results

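The nuclear-encoded subunits of the respiratory chain were followed in PC3, an established line of human prostate cancer cells, after 48 h with a PIM kinase inhibitor or with a degrader named after it. Members were the protein-coding genes whose symbols mark them as subunits of complex I (NDUFA, NDUFB, NDUFC, NDUFS and NDUFV), complex II (SDHA to SDHD), complex III (UQCR and CYC1), complex IV (COX4 to COX8) and complex V (ATP5), together with cytochrome c (CYCS). This gave 92 of the 58735 genes in the count table, and 85 of the 92 had enough counts to be tested among 17499 genes. The 85 were 36 members of complex I, 4 of complex II, 10 of complex III, 15 of complex IV (where NDUFA4 and its paralog NDUFA4L2 are placed) and 19 of complex V, plus CYCS. The 5 groups of libraries, all from PC3 cells at 48 h, were the solvent DMSO, SGI-1776 at 1500 or 3750 nM, and SGI-1776-VHL-02 at the same doses. SGI-1776 is an inhibitor of PIM kinases, and the design text calls SGI-1776-VHL-02 a PROTAC. PROTACs bind a target and a ubiquitin ligase at once, so that the target is degraded. The comparison between them asks how inhibiting PIM kinases differs from degrading them in its effect on the transcriptome. Each group holds 6 libraries, labelled Rep 1 or Rep 2 with 3 libraries each, and all come from this 1 line.

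The respiratory chain sits in the inner mitochondrial membrane. Complex I takes electrons from NADH and complex II from succinate, coenzyme Q carries them to complex III, cytochrome c carries them to complex IV, and complex IV passes them to oxygen. Complexes I, III and IV pump protons across the membrane, and complex V, the ATP synthase, uses their return to make ATP. Core subunits hold the redox centres or the catalytic sites, and accessory subunits surround them. Complex II is made wholly from nuclear genes, whereas the other complexes also need subunits encoded by mitochondrial DNA. Many nuclear subunit genes are known targets of the transcription factors NRF1 and GABP, the latter of the ETS family.

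Sequencing depth was 22520292 to 48968707 counts per library. The members took 0.884% to 1.05% of all counts, and their median level was 79 CPM (counts scaled for library size and composition) against 17 CPM over all genes tested. Of the epithelial markers, KRT8 had a median of 553 CPM and KRT18 of 315 CPM in DMSO. KLK3, a marker of differentiated prostate epithelium that this line is known to lack, was at a median of 0 CPM. Of 5 leukocyte and 7 fibroblast or endothelial markers, 2 each had enough counts to be tested, and none passed the test in any treatment against DMSO. In RNA from whole cultures, fewer cells of one kind and less RNA per cell cannot be told apart.

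Promoter sequence is shown for some of the members that changed below, because NRF1 and ETS sites are the best-known common feature of these genes. The members printed in this paragraph are ones with a match. The window was the 250 bases before the RefSeq gene start (GRCh38.p14), searched on both strands, and 72 members could be matched to it. The NRF1 motif, spelled by the capitals in the UQCR lines below with the first of its middle pair of bases free, occurred in 15 of these 72 windows (20.8%) and in 7.7% of 15842 windows of coding genes. The ETS motif CCGGAAG occurred in 17 (23.6%) against 11.8%. For SDHA, UQCRFS1, UQCRC1 and NDUFS1 only the match and its flanking bases are printed, on the gene's strand and with the match in capitals. SDHA held 4 NRF1 matches, which start at -166, -117, -68 and -19 from the gene start, evenly spaced and all read on the other strand, and the outer ones are shown. UQCRFS1 and UQCRC1 each held 1 NRF1 match, at -31 and -47, and NDUFS1 held 1 ETS match at -157, also read on the other strand. These positions are from the RefSeq start. By the GENCODE 29 coordinates, the matches of UQCRFS1, UQCRC1 and NDUFS1 and those of SDHA at -68 and -19 lie inside the annotated gene.
SDHA, chr5:218144-218173, plus strand: ggtccgctttGCGCAGGCGCggcgccccca
SDHA, chr5:218291-218319, plus strand: ccggtgtggtGCGCAGGCGCagtctgcgc
UQCRFS1, chr19:29213163-29213192, minus strand: gcgcctcctcGCGCCTGCGCcgtggttgga
UQCRC1, chr3:48609674-48609703, minus strand: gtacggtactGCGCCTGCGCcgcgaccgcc
NDUFS1, chr2:206159585-206159611, minus strand: gctggggccaCTTCCGGcggaactgcg

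NDUFA4L2, the member that changed most, had no NRF1 or ETS match. Its whole window is shown, with the letters GCGTG, a core of the hypoxia response element, in capitals. They start at -204 and -20. The same letters occurred in 36 of the 72 members' windows (50%) and in 39.2% of coding windows, so their presence is common. All of these matches describe letters in a window and not bound sites.
NDUFA4L2, chr12:57240763-57241012, minus strand: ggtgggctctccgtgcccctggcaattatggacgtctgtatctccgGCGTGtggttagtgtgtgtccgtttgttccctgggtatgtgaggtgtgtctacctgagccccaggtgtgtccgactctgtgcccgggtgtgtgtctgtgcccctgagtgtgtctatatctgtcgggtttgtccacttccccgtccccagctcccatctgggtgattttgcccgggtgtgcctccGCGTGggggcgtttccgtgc

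At the higher dose both compounds lowered a minority of the subunit genes, by small amounts. With SGI-1776 at 3750 nM, 24 of the 85 members fell and 5 rose (34.1% changed), in edgeR's quasi-likelihood test with Benjamini-Hochberg adjustment over all 17499 genes and a threshold of 0.05. Over all genes tested 35.6% changed there, 18.4% lower and 17.2% higher, so the members changed about as often as other genes did, and 28.2% of them fell. With SGI-1776-VHL-02 at 3750 nM, 26 members fell and 2 rose (32.9% changed), against 21.8% of all genes, of which 10.3% of all genes tested were lower and 11.5% higher. The share of members that fell there was 30.6%. At 1500 nM SGI-1776 lowered 8 members and raised none (9.41% against 12.9% of all genes, 5.28% higher and 7.65% lower). With SGI-1776-VHL-02 at 1500 nM, 0 members passed the same test (1.92% of all genes did, 1.07% higher and 0.851% lower), 8 had an unadjusted p under 0.05, and DESeq2 also called 0. The median log2 fold change of the members was -0.043 and -0.048 for the 2 doses of SGI-1776 and 0.007 and -0.06 for those of SGI-1776-VHL-02, beside medians over all genes of 0.0025, 0.0086, -0.0037 and 0.0025. These 4 comparisons share the DMSO libraries.

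The Rep numbers marked a difference that all groups shared, so a fit with the Rep number as a block was also made. It gave 14 lower members at SGI-1776 1500 nM in place of 8, where it called 21.6% of all genes. At SGI-1776-VHL-02 1500 nM it gave 2 lower (SDHA and NDUFV1) and 1 higher (ATP5PO) in place of 0, against 9.42% of all genes. At 3750 nM it gave 29 lower and 9 higher with SGI-1776 (44.1% of all genes called). With SGI-1776-VHL-02 at 3750 nM it gave 30 lower and 5 higher (30.1%). Summing the 3 libraries of each Rep left n = 2 per group, and 0, 1, 0 and 1 members then passed in the order SGI-1776 1500 and 3750 nM, then SGI-1776-VHL-02 1500 and 3750 nM. Over all genes 0%, 6.9%, 0% and 1.47% passed on these sums. The sums fitted with the Rep block gave 4, 28, 0 and 26 members, against 10.3%, 31.4%, 4.25% and 18.8% of all genes. At SGI-1776 1500 nM 0 members were called without Rep 2, against 6.08% of all genes. Leaving out Rep 1 gave 7 (12.3% of all genes), of which SDHA, SDHB, CYC1 and UQCRC1 were among the 8. When library size alone set the scale, the split at SGI-1776 3750 nM was 11 higher and 14 lower (36.3% of all genes called).

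**Figure D1:**
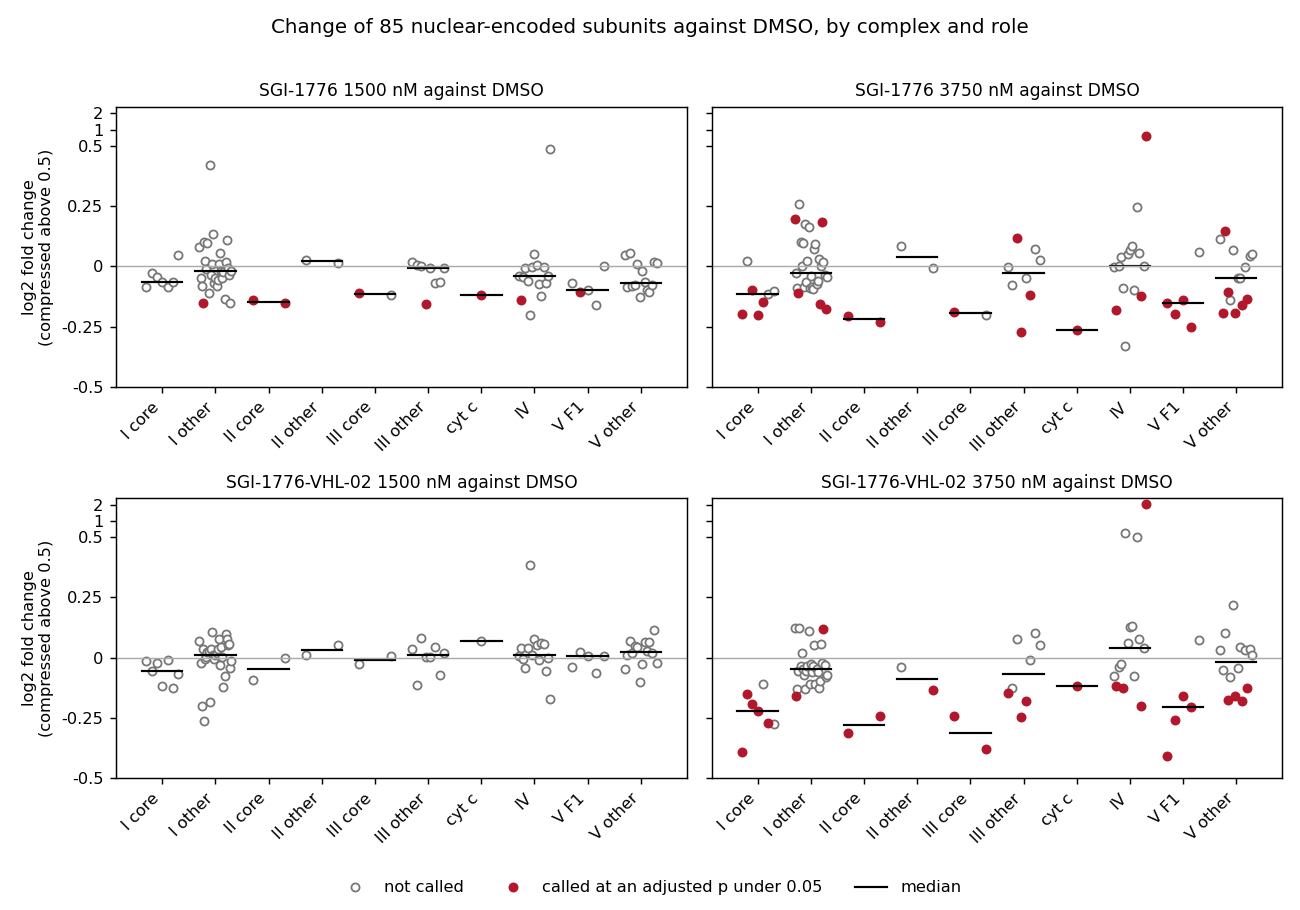
Log2 fold change against DMSO (vertical axis, compressed above 0.5) of every tested member, by class of subunit, in one panel per treatment. Each point is 1 gene, red points passed the test, and bars are class medians. The red points lie mostly below 0 in the panels at 3750 nM, where 24 and 26 members fell, and NDUFA4L2 stands alone at the top with 2.03 at SGI-1776-VHL-02 3750 nM.

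The subunits that carry the redox centres and the catalytic head of ATP synthase held much of the fall. This group has 16 genes: 7 core subunits of complex I, SDHA, SDHB, CYC1, UQCRFS1 and the 5 subunits of the F1 head. Of these 16, 4 fell with SGI-1776 at 1500 nM, 11 at 3750 nM, 0 with SGI-1776-VHL-02 at 1500 nM and 13 at 3750 nM. None of them rose in any of the 4. The shares lower were 25%, 68.8%, 0% and 81.2% in that order, against 7.65%, 18.4%, 0.851% and 10.3% of all genes. Median log2 fold changes of the 16 were -0.085, -0.17, -0.024 and -0.242. Of the other 69 members, 4, 13, 0 and 13 fell (5.8%, 18.8%, 0% and 18.8%). Of these 69, 5 rose at SGI-1776 3750 nM and 2 at SGI-1776-VHL-02 3750 nM, and the medians were -0.022, -0.004, 0.018 and -0.039. With the Rep block the calls among the 16, in either direction, were 6, 13, 2 and 14. The block called 21.6%, 44.1%, 9.42% and 30.1% of all genes there. Fitted on sums per Rep it called 2, 12, 0 and 13 of the 16, against 10.3%, 31.4%, 4.25% and 18.8% of all genes. This grouping was drawn up with earlier results of these data known, so it describes where the changes lay and is not a test of them.

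Complex II, succinate dehydrogenase, also belongs to the citric acid cycle. SDHA, the flavoprotein subunit where succinate is oxidised, had 227, 243 and 261 CPM as lowest, median and highest of the 6 DMSO libraries. It had 213, 218 and 230 CPM with SGI-1776 at 1500 nM and 199, 213 and 218 CPM at 3750 nM. With SGI-1776-VHL-02 it had 216, 228 and 236 CPM at 1500 nM and 183, 195 and 209 CPM at 3750 nM. Both 3750 nM groups lay wholly below DMSO, and the 1500 nM groups overlapped it. Its log2 fold change was -0.31 ± 0.0382 (SE, n = 6 libraries per group; edgeR adjusted p = 2.05e-07) with SGI-1776-VHL-02 at 3750 nM, -0.21 (adjusted p = 6.94e-05) with SGI-1776 at 3750 nM and -0.14 (adjusted p = 0.0121) at 1500 nM. At SGI-1776-VHL-02 1500 nM SDHA had -0.09, which passed only with the Rep block (adjusted p = 0.0125), and not with the block fitted on sums per Rep (0.249).

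SDHB, the iron-sulfur subunit that hands electrons on, followed a similar course. Its levels were 103, 110 and 120 CPM in DMSO, 97.4, 99.4 and 102 CPM with SGI-1776 at 1500 nM, and 89.7, 93.8 and 99.4 CPM at 3750 nM. SGI-1776-VHL-02 gave 106, 109 and 119 CPM at 1500 nM and 87.6, 94.5 and 97.7 CPM at 3750 nM. SDHB therefore lay below every DMSO library in 3 of the 4 treated groups and overlapped DMSO with SGI-1776-VHL-02 at 1500 nM. It fell by 0.24 on the log2 scale with SGI-1776-VHL-02 at 3750 nM (edgeR adjusted p = 1.17e-05) and by 0.23 with SGI-1776 at 3750 nM (9.3e-06). The membrane anchors behaved less uniformly. SDHC had medians of 162 CPM in DMSO, 175 CPM with SGI-1776 and 160 CPM with SGI-1776-VHL-02 at 3750 nM and passed in neither against DMSO, although the Rep block called a rise with SGI-1776 (0.0118) that did not pass on sums per Rep (0.0959). SDHD, with medians of 79.1, 78.5 and 71.6 CPM, fell only with SGI-1776-VHL-02 at 3750 nM (-0.13, adjusted p = 0.03), a call that was lost without Rep 2 (0.0629), and 24% of its exon bases are shared with neighbours.

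**Figure D2:**
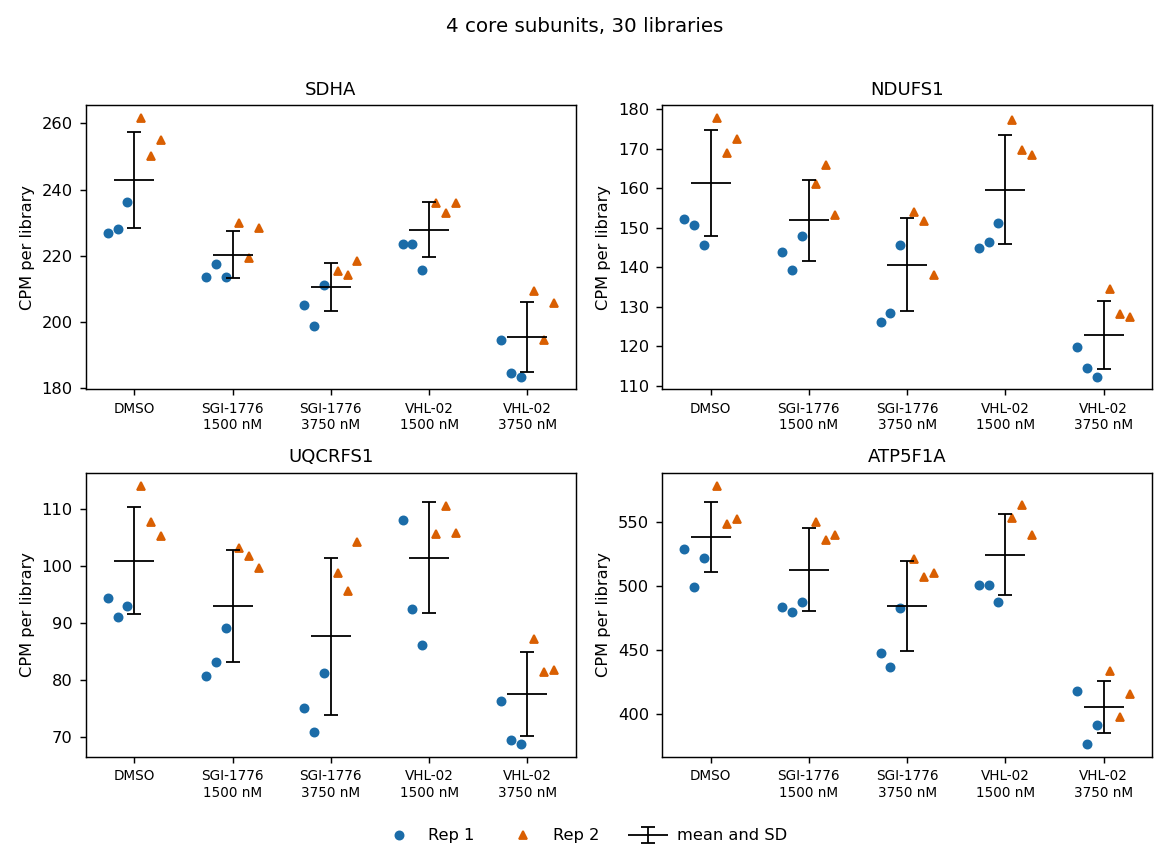
CPM per library (vertical axis, not starting at 0) of SDHA, NDUFS1, UQCRFS1 and ATP5F1A in the 5 groups. Circles are Rep 1, triangles Rep 2, and the bar with its whisker is the mean ± SD of 6 libraries; VHL-02 stands for SGI-1776-VHL-02. In each panel the libraries of SGI-1776-VHL-02 3750 nM lie below all of DMSO, and UQCRFS1 and NDUFS1 were higher in Rep 2 by 0.25 and 0.18 on the log2 scale.

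In complex I, 5 of the 6 members that fell with SGI-1776-VHL-02 at 3750 nM were core subunits, and 4 of the 7 that fell with SGI-1776 at that dose. NDUFS1, the largest core subunit and a carrier of iron-sulfur clusters, had 146, 161 and 178 CPM in DMSO. It had 126, 142 and 154 CPM with SGI-1776 and 112, 124 and 134 CPM with SGI-1776-VHL-02 at 3750 nM. The first range overlapped DMSO and the second did not. The log2 fold changes were -0.20 ± 0.0623 (edgeR adjusted p = 0.0129) and -0.39 ± 0.0624 (1.71e-05). NDUFV1, which binds NADH and FMN, had 245, 266 and 277 CPM in DMSO and 207, 220 and 228 CPM with SGI-1776-VHL-02 at 3750 nM, with no overlap and a log2 fold change of -0.27 (adjusted p = 0.000245). With SGI-1776 at 3750 nM NDUFV1 had 223, 242 and 266 CPM, overlapped DMSO and did not pass (0.0842, or 0.00432 with the Rep block).

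NDUFS7, an iron-sulfur subunit at the end of the electron path, fell with both compounds at 3750 nM (-0.20 and -0.22, edgeR adjusted p = 0.00267 and 0.00198), the former not without Rep 1 (0.0501), and shares 37.9% of its exon bases with genes on the opposite strand. In all, 4 of the 7 core subunits fell with SGI-1776 and 5 with SGI-1776-VHL-02 at 3750 nM, and 0 at 1500 nM of either. The shares at 3750 nM were 57.1% and 71.4%, against 18.4% and 10.3% of all genes lower. NDUFV2, also a core subunit, was counted at a median of only 0.677 CPM in DMSO and shares 82.9% of its exon bases with an overlapping gene, so its value is uncertain.

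Of the 29 tested accessory subunits of complex I, 3 fell and 2 rose with SGI-1776 at 3750 nM, and 1 fell and 1 rose with SGI-1776-VHL-02 at 3750 nM. Lower were 10.3% and 3.45% of the 29, against 18.4% and 10.3% of all genes. NDUFA10 was the one that fell with SGI-1776-VHL-02, from 149, 151 and 154 CPM in DMSO to 128, 135 and 141 CPM (-0.16, edgeR adjusted p = 1.13e-05). NDUFS4 rose slightly, from a median of 22.6 CPM to 24.2 CPM (0.12, adjusted p = 0.0335), and lost that call without either Rep (0.696 without Rep 1, 0.0616 without Rep 2). NDUFA1 rose with SGI-1776 at 3750 nM, from a median of 45.1 CPM to 52.8 CPM (0.20, adjusted p = 0.00546), but not in the libraries left without Rep 1 (0.583), and it shares 44.5% of its exon bases with RNF113A on the opposite strand. NDUFC2 rose there from 21.8 to 24.8 CPM (0.18, adjusted p = 0.0332) and lost the call without either Rep (0.163 and 0.0622). At SGI-1776 1500 nM the single complex I call was NDUFA12, which fell from 42.7 to 38.5 CPM (-0.15, adjusted p = 0.0143). With the Rep block 3 complex I members were called there (21.6% of all genes), and 1 with the block fitted on sums per Rep (10.3%).

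Complex III passes electrons from coenzyme Q to cytochrome c. UQCRC1, a large matrix-facing subunit, had 451, 466 and 490 CPM in DMSO, 413, 417 and 432 CPM with SGI-1776 at 1500 nM and 355, 385 and 410 CPM at 3750 nM. With SGI-1776-VHL-02 it had 446, 466 and 503 CPM at 1500 nM and 380, 399 and 400 CPM at 3750 nM. All groups but SGI-1776-VHL-02 1500 nM lay below DMSO. The log2 fold changes were -0.16 (edgeR adjusted p = 0.000977), -0.27 ± 0.0319 (4.99e-08) and -0.25 ± 0.0319 (6.05e-07) in those 3 groups. At SGI-1776 3750 nM UQCRC1 was the only member to pass with the libraries summed per Rep (adjusted p = 0.0426).

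CYC1, the cytochrome c1 haem subunit, had 522, 526 and 543 CPM in DMSO and 444, 461 and 489 CPM with SGI-1776 at 3750 nM. SGI-1776-VHL-02 at 3750 nM gave 418, 440 and 483 CPM, and neither group reached the DMSO range. It fell by 0.19 and 0.24 on the log2 scale (edgeR adjusted p = 1.66e-05 and 6.93e-07), and by 0.11 with SGI-1776 at 1500 nM (0.0165). UQCRFS1, the Rieske iron-sulfur protein, had 91, 99.8 and 114 CPM in DMSO, 70.9, 88.5 and 104 CPM with SGI-1776 and 68.9, 78.9 and 87.2 CPM with SGI-1776-VHL-02 at 3750 nM. It fell by 0.38 ± 0.0877 on the log2 scale with SGI-1776-VHL-02 (adjusted p = 0.00169). With SGI-1776 it had -0.20, which did not pass (0.0721) but did with the Rep block (0.000325). UQCRC2, the partner of UQCRC1, fell with SGI-1776-VHL-02 at 3750 nM from a median of 118 CPM to 104 CPM (-0.18, adjusted p = 7.73e-06), as did the small subunit UQCR10 (-0.15, 0.0129), though not without Rep 2 (0.137). UQCRB moved the other way with SGI-1776 at 3750 nM, from 208 to 228 CPM (0.12, 0.0162, or 0.11 without Rep 1). In all, 5 of 10 complex III members fell with SGI-1776-VHL-02 and 3 of 10 with SGI-1776 at 3750 nM. These shares are 50% and 30%, against 10.3% and 18.4% of all genes lower.

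CYCS, cytochrome c itself, separated the compounds. Its levels were 280, 305 and 312 CPM in DMSO, 251, 278 and 304 CPM with SGI-1776 at 1500 nM, and 234, 250 and 268 CPM at 3750 nM. SGI-1776-VHL-02 gave 305, 313 and 329 CPM at 1500 nM and 270, 278 and 285 CPM at 3750 nM. At each dose the SGI-1776 libraries lay below all SGI-1776-VHL-02 libraries. Against DMSO CYCS fell by 0.12, 0.26 and 0.12 on the log2 scale with SGI-1776 at 1500 nM, SGI-1776 at 3750 nM and SGI-1776-VHL-02 at 3750 nM (edgeR adjusted p = 0.0378, 2.69e-06 and 0.0286). The last of these did not pass without Rep 2 (0.584). The annotation names 40 pseudogenes of CYCS, so reads could be shared with near-identical copies.

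Complex V held the largest fall among the members called against DMSO. ATP5F1A, the alpha subunit of the catalytic head, had 499, 539 and 578 CPM in DMSO, 480, 511 and 550 CPM with SGI-1776 at 1500 nM and 437, 495 and 521 CPM at 3750 nM. SGI-1776-VHL-02 gave 488, 521 and 563 CPM at 1500 nM and 377, 406 and 433 CPM at 3750 nM. Only the last group lay clear of DMSO, at 0.754 times its level (log2 fold change -0.41 ± 0.0494, 95% interval -0.51 to -0.31, edgeR adjusted p = 1.95e-07). With SGI-1776 at 3750 nM it was -0.15 (0.0157). ATP5F1B, the beta subunit that holds the catalytic sites, was the highest member in counts, at 1180, 1220 and 1280 CPM in DMSO. It had 989, 1070 and 1120 CPM with SGI-1776 and 992, 1030 and 1050 CPM with SGI-1776-VHL-02 at 3750 nM, both clear of DMSO (-0.20 and -0.26, adjusted p = 1.95e-05 and 6.39e-07).

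Of the 5 F1 subunits, 4 fell with each compound at 3750 nM, and the one that did not was ATP5F1E, the small epsilon subunit, at medians of 126, 132 and 133 CPM in DMSO, SGI-1776 and SGI-1776-VHL-02. The 3 genes for the identical mature c subunit of the rotor ring, which differ in their import sequence, did not move as one. ATP5MC1 had 134, 141 and 144 CPM in DMSO and 113, 122 and 135 CPM with SGI-1776 at 3750 nM, where it fell by 0.20 on the log2 scale (edgeR adjusted p = 0.0016). ATP5MC3 had 185, 188 and 204 CPM in DMSO and fell with SGI-1776-VHL-02 at 3750 nM to 154, 169 and 184 CPM (-0.17, 0.00129), a call lost without Rep 2 (0.29). It also fell with SGI-1776 at 3750 nM (-0.105, 0.0356), a call lost without either Rep (0.0937 and 0.0955). ATP5MC2 rose with SGI-1776 at 3750 nM, from 107, 114 and 124 CPM to 116, 126 and 135 CPM (0.15, 0.00361), and its rise with SGI-1776-VHL-02 at 3750 nM passed only with the Rep block (0.0192). ATP5IF1, the protein inhibitor of ATP hydrolysis, had medians of 68.1 CPM in DMSO and 74.7 and 70.3 CPM at 3750 nM and passed nowhere against DMSO, though it passed for SGI-1776 3750 nM with the Rep block (0.0406) but not with the block on sums per Rep (0.0665). Over the complex, 9 of 19 fell and 1 rose with SGI-1776 at 3750 nM, and 8 fell with SGI-1776-VHL-02. Lower there were 47.4% and 42.1% of its members, against 18.4% and 10.3% of all genes. At SGI-1776 1500 nM 1 fell. The Rep block called 5 there (21.6% of all genes), or 0 when fitted on sums per Rep (10.3%).

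Of the 15 members of complex IV, 3 fell with SGI-1776-VHL-02 at 3750 nM and 2 with SGI-1776, and NDUFA4L2 rose in both. Lower were 20% and 13.3% of its members, against 10.3% and 18.4% of all genes. Counting both directions, 26.7% and 20% changed, against 21.8% and 35.6% of all genes. COX4I1, the largest nuclear subunit in its ubiquitous form, had a median of 219 CPM in DMSO. At 3750 nM its median was 224 CPM with SGI-1776 and 208 CPM with SGI-1776-VHL-02, and it passed in neither comparison. COX8A fell with SGI-1776-VHL-02 at 3750 nM from 158, 166 and 178 CPM to 132, 147 and 153 CPM (-0.20, edgeR adjusted p = 0.000419) and with SGI-1776 at 3750 nM (-0.12, 0.0193, or 0.171 without Rep 1). COX5A fell with SGI-1776 at both doses, from a DMSO median of 80.9 CPM to 72 and 72.9 CPM (-0.14 and -0.18, 0.0144 and 0.00042). It also fell with SGI-1776-VHL-02 at 3750 nM (-0.12, 0.027), but not without Rep 2 (0.312). COX6B1 fell only with SGI-1776-VHL-02 at 3750 nM, from 94.3 to 87.3 CPM (-0.13, 0.0118), and not without Rep 2 (0.396). COX6A1, COX7A2, COX7B and COX7A2L, a factor of supercomplex assembly, passed in no treatment against DMSO in the fit without a block. With the Rep block 7 members of the complex in place of 4 were called at SGI-1776-VHL-02 3750 nM (30.1% of all genes). Among them COX4I1 (0.0395) was lower and COX7A2 (0.0261) and COX7A2L (0.00709) higher. The block fitted on sums per Rep called 5 (18.8% of all genes), COX7A2 and COX7A2L included but not COX4I1 (0.268). Isoforms known mainly from other tissues were at the edge of detection. COX7A1, COX8C, COX4I2 and COX6A2 had 215, 70, 6 and 3 counts over all 30 libraries and were not tested. COX7B2 had a median of 0.286 CPM in DMSO, and COX6B2, the testis form, 0.805 CPM.

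NDUFA4L2 rose most. It is a paralog of NDUFA4, a complex IV subunit first assigned to complex I, and it is known as a target of hypoxia-inducible factor. Its levels were 0.443, 0.753 and 0.876 CPM in DMSO, 0.498, 1.07 and 1.58 CPM with SGI-1776 at 1500 nM, and 0.806, 1.21 and 1.53 CPM at 3750 nM. SGI-1776-VHL-02 gave 0.358, 0.651 and 0.798 CPM at 1500 nM and 2.62, 2.9 and 3.39 CPM at 3750 nM. The last group lay above every other library of the study. Against DMSO it was 4.09-fold higher (log2 fold change 2.03 ± 0.203, 95% interval 1.62 to 2.45, edgeR adjusted p = 5.47e-09), and it passed with the libraries summed per Rep (0.0138). With SGI-1776 at 3750 nM it rose by 0.75 on the log2 scale (0.0074), a call lost without Rep 2 (0.141). NDUFA4 itself stayed at medians of 133 to 138 CPM in all groups, with a log2 difference of 0.04 (95% interval -0.08 to 0.16) at SGI-1776-VHL-02 3750 nM. NDUFA4L2 is thus a gene of very low level beside an abundant paralog.

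**Figure D3:**
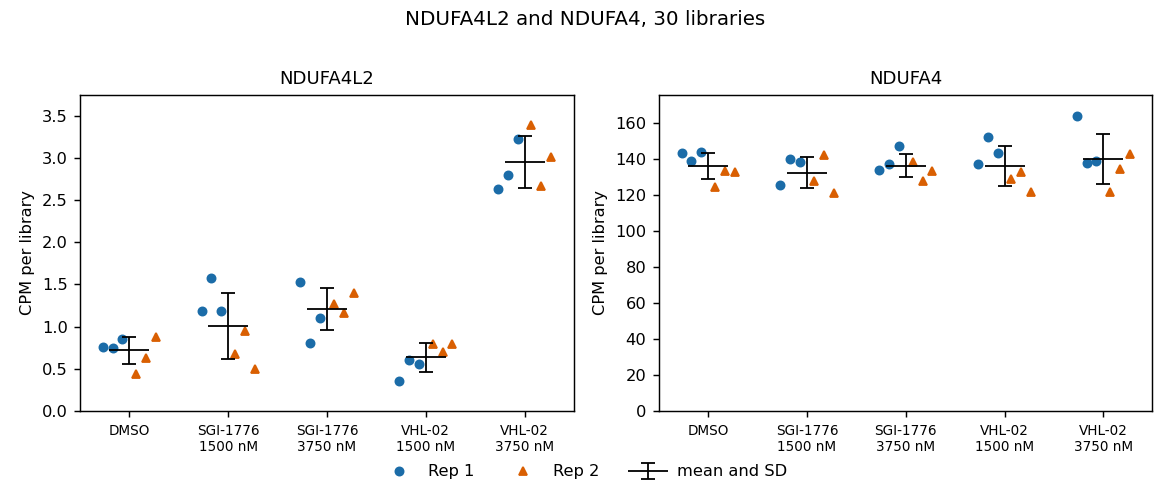
CPM per library of NDUFA4L2 and NDUFA4 in the 5 groups, on axes that start at 0. Circles are Rep 1, triangles Rep 2, and the bar with its whisker is the mean ± SD of 6 libraries; VHL-02 stands for SGI-1776-VHL-02. The 6 libraries of SGI-1776-VHL-02 3750 nM lie at 2.62 to 3.39 CPM for NDUFA4L2 and apart from all others, while NDUFA4 overlaps in all groups.

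The compounds were compared directly at their 2 matched doses. At 1500 nM, 13 members were higher and 2 lower with SGI-1776-VHL-02 than with SGI-1776 (17.6% of members, against 25.2% of all genes, 14.4% higher and 10.7% lower). The higher ones included CYCS (0.19, edgeR adjusted p = 0.000473), NDUFA12 (0.19, 0.00105), COX5A (0.18, 0.00082), ATP5PD of the ATP synthase stalk (0.17, 0.00504), UQCRC1 (0.16, 0.000299) and SDHB (0.15, 0.00286). The lower ones were NDUFA4L2 (-0.66, 0.026) and NDUFA7 (-0.61, 0.0228), at medians of 0.651 against 1.07 CPM and 1 against 1.57 CPM. NDUFA7 shares most of its exon bases with other genes, and without Rep 1 neither passed (0.901 and 0.279). Of the 13 higher members only 3, CYCS, UQCRC1 and ATP5F1B, were called without Rep 1, where 15.6% of all genes were. SDHA differed by less there, with medians of 228 and 218 CPM, and did not pass. The Rep block gave 25 calls in place of 15 (36.5% of all genes called). The sums per Rep gave 0 without the block and 12 with it (0.745% and 23.9% of all genes). Scaling by library size alone gave 6 higher and 6 lower (25.2%). Without the 4 libraries in which mitochondrial genes took under 0.5% of counts, 8 members were called (21.5% of all genes).

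At 3750 nM 14 members were lower and 5 higher with SGI-1776-VHL-02 (22.4% of members, against 31.2% of all genes; 16.5% lower, against 13.5%, and 17.6% of all genes higher). Without Rep 1 the split was 16 lower and 1 higher (22.1% of all genes called), and without Rep 2 it was 8 and 8 (29.4%). Lower ones included ATP5F1A (-0.26, 95% interval -0.36 to -0.16, edgeR adjusted p = 0.000138), NDUFB5 (-0.20, 0.000261), NDUFA10 (-0.13, 0.00011), UQCRC2 (-0.13, 0.000318) and 3 of the 4 complex II subunits, SDHA (-0.11, 0.0295), SDHC (-0.12, 0.027) and SDHD (-0.13, 0.0312). The SDHA call was lost without Rep 1 (0.0584) and those of SDHC and SDHD without Rep 2 (0.141 and 0.168). SDHB did not differ detectably (-0.01, 95% interval -0.08 to 0.07). Higher were NDUFA4L2 (1.28, 3.69e-06), COX6B2 (0.92, 0.00704), CYCS (0.15, 0.004), ATP5MC1 (0.14, 0.0205) and UQCRH (0.11, 0.0178), of which the last 3 did not pass without Rep 1 (0.148, 0.099 and 0.512). COX6B2 lay at medians of 1.4 and 0.576 CPM, did not pass without Rep 1 (0.176), and shares 37% of its exon bases with another gene. Scaling by library size alone gave 2 higher and 23 lower (31.2% of all genes called). The sums per Rep left only NDUFA4L2 (0.0304), against 5.91% of all genes. UQCRFS1 had a difference of -0.18 (95% interval -0.36 to 0.0025), which passed only with the Rep block (0.00326).

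Raising the dose changed few members with SGI-1776 and more with SGI-1776-VHL-02. Between 1500 and 3750 nM of SGI-1776, 2 members fell, CYCS (-0.14, edgeR adjusted p = 0.0161) and UQCRC1 (-0.12, 0.0179). This is 2.35% of members against 9.15% of all genes (4.46% higher, 4.69% lower). The Rep block called 7 members and 17.3% of all genes. Between the doses of SGI-1776-VHL-02, 22 fell and 1 rose (27.1% against 19% of all genes; 25.9% lower against 9.74%, with 9.23% of all genes higher). The largest falls were UQCRFS1 (-0.39, 0.00174), NDUFS1 (-0.38, 3.84e-05), ATP5F1A (-0.37, 1.57e-06) and ATP5F1B (-0.28, 2.06e-07), and NDUFA4L2 rose by 2.20 (1.69e-09). The test of the difference between the dose effects passed for 6 members (7.06% against 2.67% of all genes, 1.66% higher and 1.02% lower). NDUFA4L2 had 1.94 ± 0.2916 (7.18e-05), and among the others ATP5F1A (-0.29, 0.0173), ATP5F1B (-0.19, 0.0192), NDUFA10 (-0.15, 0.00992) and UQCRC2 (-0.14, 0.0387) stepped down more with SGI-1776-VHL-02. Without Rep 2 only NDUFA4L2 of these was called, and without Rep 1 NDUFA4L2 was not (0.103). The Rep block gave 14 (6.21% of all genes), or 4 when fitted on sums per Rep (2.23%).

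Summed over their members, complexes I, II, III and V were lowest with SGI-1776-VHL-02 at 3750 nM by their medians. Complex II had a median of 591 CPM in DMSO (564 to 637) and 520 CPM with SGI-1776-VHL-02 at 3750 nM (496 to 542), with no overlap, and 560.5 CPM with SGI-1776 at 3750 nM. Complex III had 1737.5 CPM in DMSO, 1592 CPM with SGI-1776 and 1547 CPM with SGI-1776-VHL-02 at 3750 nM. Complex V had 3384, 3126.5 and 2975 CPM in these groups, and complex I 2526, 2454.5 and 2356 CPM. Complex IV differed little, at 1634, 1623.5 and 1614.5 CPM. All members together had 10182 CPM in DMSO (9949 to 10561), 9760 CPM with SGI-1776 at 1500 nM, 10265 CPM with SGI-1776-VHL-02 at 1500 nM, 9613 CPM with SGI-1776 at 3750 nM and 9242.5 CPM (9007 to 9787) with SGI-1776-VHL-02 at 3750 nM. The few most abundant genes weigh most in these sums.

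**Figure D4:**
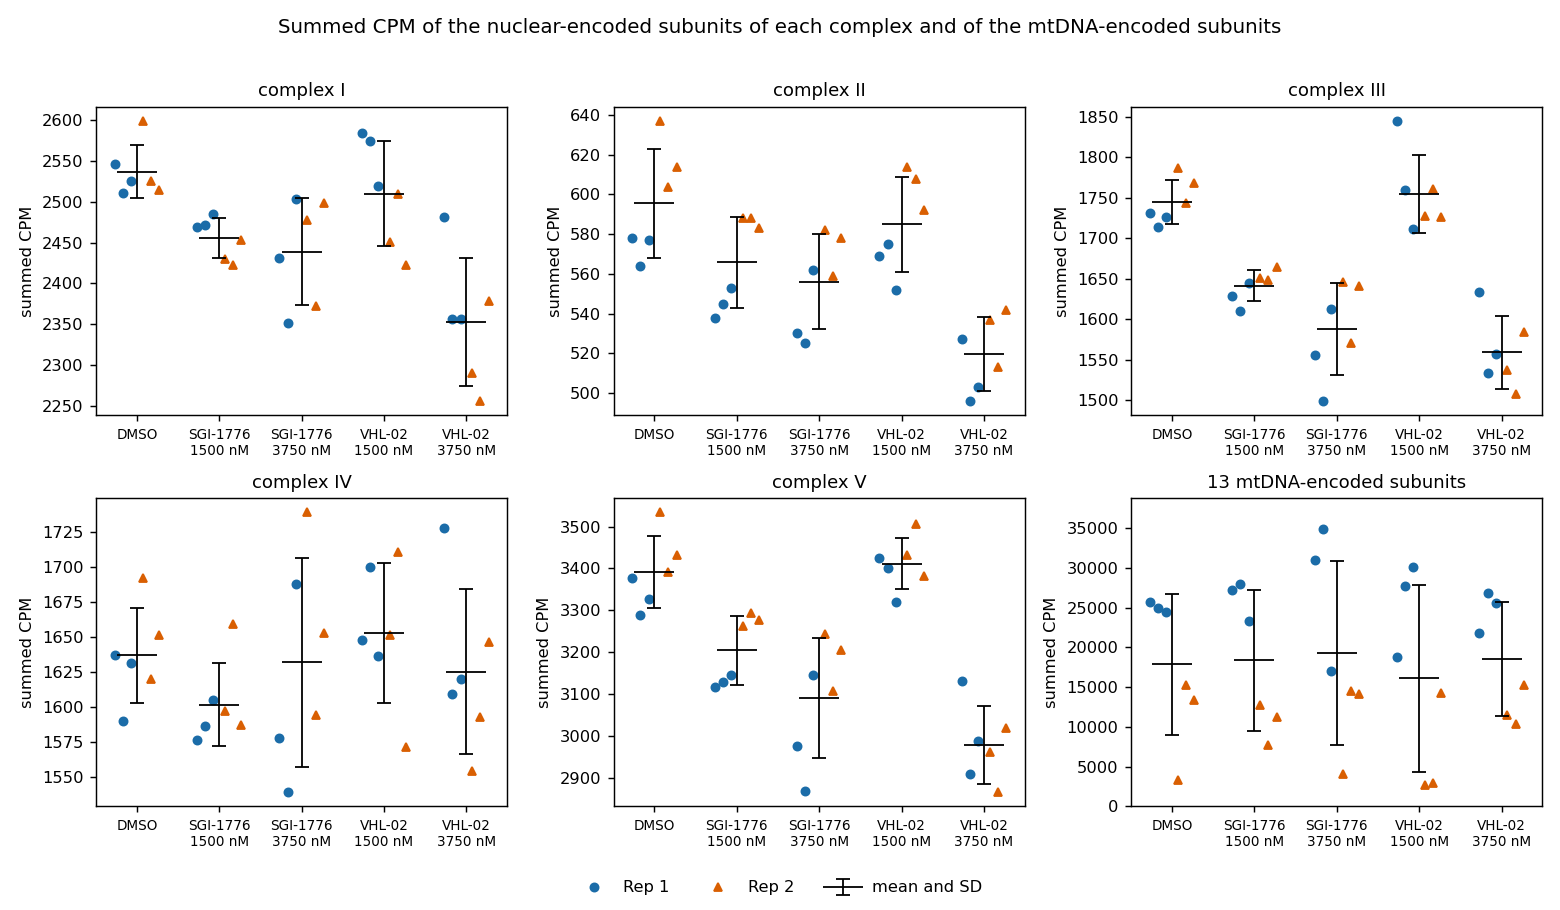
Summed CPM per library of the members of each complex and of the 13 subunits encoded by mitochondrial DNA, in the 5 groups. Circles are Rep 1, triangles Rep 2, and the bar with its whisker is the mean ± SD of 6 libraries; VHL-02 stands for SGI-1776-VHL-02, and only the mitochondrial panel starts at 0. Complex II falls from a median of 591 to 520 CPM at SGI-1776-VHL-02 3750 nM, and the mitochondrial sum splits by Rep in every group.

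Of the 13 subunits encoded by mitochondrial DNA none was called between treatments in the fit without a block. In edgeR's test 0 of 13 passed in any of the comparisons between treatments, 0 had an unadjusted p under 0.05, DESeq2 called 0, and their median log2 fold change was 0.13 with SGI-1776 and 0.098 with SGI-1776-VHL-02 at 3750 nM. With the Rep block 1 of 13 was called, MT-ND3, higher at 3750 than at 1500 nM of SGI-1776-VHL-02 (0.74, 0.0269, against 0.58 and 0.379 without the block). They differed by Rep: all 13 were lower in Rep 2, with a median log2 difference of -1.36. The ratio of their summed CPM to that of the nuclear members was 1.74 to 3.87 in Rep 1 and 0.262 to 1.61 in Rep 2, and mitochondrial genes took 1.94% to 3.96% and 0.296% to 1.67% of counts. Of the 85 nuclear members 20 were higher and 18 lower in Rep 2 (44.7%, against 53.3% of all genes, 27.2% higher and 26.1% lower), by at most 0.59 on the log2 scale. UQCRFS1 (0.25), NDUFS1 (0.18), ATP5F1A (0.13) and SDHA (0.10) were higher in Rep 2, and NDUFA11 (-0.31), NDUFB9 (-0.15) and NDUFA4 (-0.11) lower. Each Rep is in every group with 3 libraries. At SGI-1776-VHL-02 3750 nM NDUFS1, SDHA, UQCRFS1, ATP5F1A and NDUFA4L2 passed in each Rep alone.

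Genes that feed or build the chain were counted from lists of the same pathway. Over all genes tested, 7.65% and 18.4% fell with SGI-1776 at 1500 and 3750 nM, and 0.851% and 10.3% with SGI-1776-VHL-02. At 3750 nM 17.2% rose with SGI-1776 and 11.5% with SGI-1776-VHL-02. Of 18 enzymes of the citric acid cycle, 8 fell with SGI-1776 at 1500 nM, 13 at 3750 nM, 0 with SGI-1776-VHL-02 at 1500 nM and 13 at 3750 nM, and none rose, with medians of -0.11, -0.169, -0.01 and -0.195. FH, fumarase, which acts next after complex II, fell by 0.34 with SGI-1776 and by 0.43 with SGI-1776-VHL-02 at 3750 nM (edgeR adjusted p = 5.22e-08 and 1.18e-09). DLD, a dehydrogenase subunit shared by several complexes, fell by 0.47 with SGI-1776-VHL-02 (8.04e-07), and CS, citrate synthase, by 0.31 with SGI-1776 at 3750 nM (6.07e-12). Of 19 assembly factors of complex I, 2 fell with SGI-1776 at 3750 nM, and 4 fell and 2 rose with SGI-1776-VHL-02. FOXRED1 fell with both (-0.27 and -0.38, 1.97e-05 and 1.37e-07), and TMEM126A rose with SGI-1776-VHL-02 (0.28, 0.000534). Of 27 assembly factors of complex IV, 9 fell and 5 rose with SGI-1776 at 3750 nM, and 7 fell with SGI-1776-VHL-02.

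TTC19, which supports complex III by clearing fragments of the Rieske protein, moved in opposite directions with the compounds. Against DMSO it rose by 0.20 and 0.29 on the log2 scale with SGI-1776 at 1500 and 3750 nM (edgeR adjusted p = 0.00144 and 1.45e-06) and fell by 0.31 and 0.52 with SGI-1776-VHL-02 (2.58e-05 and 4.79e-11). Between compounds it was lower with SGI-1776-VHL-02 by -0.50 at 1500 nM and -0.81 at 3750 nM (2.68e-10 and 1.29e-15), and both passed with the libraries summed per Rep (0.0152 and 0.00056). SQOR, which passes electrons from sulfide to coenzyme Q, fell with SGI-1776 at 3750 nM (-0.30, 0.000854) and rose with SGI-1776-VHL-02 at 3750 nM (0.31, 0.000926), a difference between the compounds of 0.60 (2.46e-08). Of 11 genes of coenzyme Q synthesis, 3 fell with each compound at 3750 nM, among them PDSS1 (-0.42, 1.41e-05, with SGI-1776), which starts the side chain. Among 17 tested regulators of mitochondrial biogenesis, 8 fell with SGI-1776 and 2 with SGI-1776-VHL-02 at 3750 nM, against 18.4% and 10.3% of all genes. With the Rep block 8 and 6 fell, where 44.1% and 30.1% of all genes were called in either direction. On sums per Rep without the block 0 and 0 were called (6.9% and 1.47% of all genes). NRF1 (-0.21, 0.00241) and GABPB1 (-0.22, 0.0149), a subunit of GABP, fell with SGI-1776. TWNK, the mitochondrial DNA helicase, fell with SGI-1776-VHL-02 (-0.26, 3.3e-05). Of the ADP/ATP carriers, SLC25A5 fell and SLC25A6 rose with both compounds at 3750 nM (-0.22 and 0.24 with SGI-1776, -0.16 and 0.20 with SGI-1776-VHL-02).

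Among the members with a promoter window, 5 of the 20 that fell with SGI-1776-VHL-02 at 3750 nM (25%) and 9 of the 47 that did not pass (19.1%) held the NRF1 letters. The ETS letters were in 7 of 20 (35%) and 10 of 47 (21.3%). These are counts of letters in small sets and were not tested. Members with a higher level in DMSO tended to have a lower fold change. Over the 85 members Spearman's rho between the 2 was -0.42 for SGI-1776 at either dose and for SGI-1776-VHL-02 at 3750 nM and -0.04 for SGI-1776-VHL-02 at 1500 nM, where the DMSO libraries enter both quantities.

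Per length, as CPM per kilobase of the principal transcript, levels in DMSO spanned a wide range. ATP5F1B (664), CYC1 (426), ATP5MF (393) and COX8A (328) were highest, and COX6B2 (0.42), NDUFA4L2 (0.606) and COX7B2 (0.622) lowest among those tested. The median level per kilobase was 50.8 for complex I, 75.4 for complex II, 52.9 for complex III, 74 for complex IV and 83.2 for complex V. By the length of all exons of the gene in place of the principal transcript ATP5MF had 52.7, not 393. It also shares 46.2% of its exon bases and COX8A 34.5% with overlapping genes on the same strand, and how such reads were assigned is uncertain. NDUFB8 (71.7%), ATP5PO (70.3%) and NDUFA11 (67%) are uncertain for the same reason. Among the 71 members that share the least exon sequence, 21 fell with SGI-1776 and 23 with SGI-1776-VHL-02 at 3750 nM. These are 29.6% and 32.4%, against 18.4% and 10.3% of all genes lower. The other members not tested were ATP5MGL (8 counts in all libraries) and the readthrough genes ATP5MF-PTCD1 (31) and NDUFC2-KCTD14 (4), whose exons lie wholly within other genes.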

How the data were processed

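RNA from 30 libraries of PC3 cells (6 per group, 5 groups) was analysed from a table of raw counts per gene that the authors deposited. Per the submitters' processing notes the counts came from featureCounts 1.5.0-p3 on GRCh38/hg38 (aligner: not given in the sources used here). Per the labels' protocols, poly-A RNA was selected and the second strand was made with dUTP or dTTP, so the strand setting is unknown. The gene identifiers and coordinates were all found in GENCODE 29. Intervals and SEs cover the spread between libraries, and without molecular identifiers reads cannot be counted as separate molecules. The labels do not say that libraries came from separate cultures, so p-values measure only the spread between these libraries, which may be technical. No 2 libraries were copies (chi-square per gene 1.95 to 23.3 within group and Rep).

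Counts were fitted in R 4.3.3 with edgeR 4.0.16 (limma 3.58.1): filterByExpr, TMM, a quasi-likelihood model of 5 groups over all libraries, Benjamini-Hochberg adjustment over 17499 genes, threshold 0.05. Every adjusted p is from this fit unless named otherwise. "Fell", "rose" and "called" mean past the threshold. SEs were derived from the log2 fold change and its F statistic. The interaction subtracts the compounds' difference at 1500 nM from the one at 3750 nM. CPM uses the scaled library sizes. The fit was tested on simulated counts of independent libraries without a Rep difference, so its error rate with such a difference was not tested.

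Rep numbers paired the groups: the difference between Rep 2 and Rep 1, taken across genes, correlated at 0.482 to 0.639 in all 10 pairs of groups. Alternatives were a replicate block, libraries summed per Rep (with and without the block), DESeq2 1.42.0, other scalings, other filters (none, or 1 CPM in 6 libraries), leaving out each Rep, and leaving out 4 libraries with under 0.5% mitochondrial counts. The members and all lists were chosen with earlier results of these data known. Named members were the 4 SDH genes, CYC1, CYCS, UQCRFS1, ATP5IF1, isoform families, and per complex the 2 highest and 2 lowest called log2 fold changes; for other lists up to 3 called genes with the largest change. ATP5PO, NDUFB8, NDUFB9, NDUFV2 and the members not tested were named after their values were seen. Promoter sequence is from RefSeq (GRCh38.p14). Values of some single genes are not reported here; counts over members include all that were tested.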

Additional observations from a re-analysis of the deposited data

Results flagged for a closer look

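CYC1 had 1 library apart from the others in 2 groups. In DMSO, library 3 of Rep 2 had 543 CPM and the others 522 to 529 CPM. In SGI-1776-VHL-02 1500 nM, library 1 of Rep 1 had 560 CPM and the others 503 to 515 CPM. These were 2 among 70 groups looked at (13 genes and 1 sum), and chance marks about 1 group in 20.

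For 6 members the effect of the dose differed between the compounds, by edgeR's test of the interaction. Among them NDUFA4L2 had 1.94 on the log2 scale, ATP5F1A -0.29, ATP5F1B -0.19, NDUFA10 -0.15 and UQCRC2 -0.14. The negative values mean a larger step down with SGI-1776-VHL-02 than with SGI-1776.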

How the results depend on the processing

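Counts of members called depended most on how the libraries were treated as replicates. With libraries summed per Rep the counts were 0 in place of 8 (SGI-1776 1500 nM), 1 in place of 29 (SGI-1776 3750 nM), 1 in place of 28 (SGI-1776-VHL-02 3750 nM), 0 and 1 in place of 15 and 19 (the compounds at 1500 and 3750 nM), 0 and 1 in place of 2 and 23 (dose steps of SGI-1776 and SGI-1776-VHL-02) and 0 in place of 6 (interaction), with fewer samples. The sums called at most 6.9% of all genes (SGI-1776 3750 nM). With the replicate block the counts of members were 14 (SGI-1776 1500 nM), 3 in place of 0 (SGI-1776-VHL-02 1500 nM) and 25 (compounds at 1500 nM). They were 7 for the SGI-1776 dose step and 14 for the interaction. Over all genes the block called 21.6%, 9.42%, 36.5%, 17.3% and 6.21% in these comparisons, in that order. At 3750 nM the block gave 38 in place of 29 (SGI-1776) and 35 in place of 28 (SGI-1776-VHL-02), where it called 44.1% and 30.1% of all genes. The block lost no call of a named member, and some of the calls it added are given beside the results. Sums with the replicate block gave 4 at SGI-1776 1500 nM (10.3% of all genes called) and 1 for its dose step (7.58%). Without a filter on low counts 1 (SGI-1776 1500 nM) and 16 (SGI-1776 3750 nM) members were called. Between compounds 7 and 12 were called at 1500 and 3750 nM, with 0 for the SGI-1776 dose step and 1 for the interaction. Over all genes 3.34%, 13.6%, 8.77%, 11.5%, 2.38% and 0.602% were called without that filter, in the same order. With it these shares were 12.9%, 35.6%, 25.2%, 31.2%, 9.15% and 2.67%. With the stricter filter the SGI-1776 dose step had 4 (12% of all genes). Library size alone gave 3 at SGI-1776 1500 nM (12.7% of all genes). Without the low mitochondrial libraries 4 (SGI-1776 1500 nM), 8 (compounds at 1500 nM) and 2 (interaction) were left. The shares of all genes there were 11.8%, 21.5% and 1.94%. The cause was not tested.

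Leaving out a Rep gave 0 to 7 at SGI-1776 1500 nM and 22 to 27 at SGI-1776 3750 nM. It gave 0 to 1 and 24 to 34 at SGI-1776-VHL-02 1500 and 3750 nM, and 3 to 21 and 16 to 17 between compounds. For the dose steps it gave 2 to 4 and 18 to 24, and for the interaction 1 to 4. Over all genes, in the same order, 12.3%, 30.6%, 1.26%, 19.4%, 15.6%, 22.1%, 7.26%, 16.5% and 1.55% were called without Rep 1. Without Rep 2 the shares were 6.08%, 30.1%, 3.44%, 17.3%, 25.3%, 29.4%, 7.56%, 14.6% and 2.13%. Of 130 calls of members, 1 changed sign in the alternatives: NDUFA4L2 between compounds at 1500 nM, 0.0642 without Rep 1, and -1.40 without Rep 2. DESeq2 moved no count by over 1.5 times. Depth limits NDUFA4L2, COX6B2 and COX7B2, near 1 CPM.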
